A study of Mus musculus with 8 samples.

Results

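The activator protein-1 (AP-1) family of transcription factors was followed at the transcript level in bone marrow-derived macrophages (BMDMs, Mϕ) of C57BL/6 wildtype mice. The members were taken by name and comprised 4 Fos genes (Fos, Fosb, Fosl1 and Fosl2), 3 Jun genes (Jun, Junb and Jund) and 3 Batf genes (Batf, Batf2 and Batf3), that is 10 of the 55359 genes listed. All samples were BMDMs of adult male and female mice that had been differentiated with M-CSF and GM-CSF at 20 ng/mL each, and CD45+ cells were bead-isolated at harvest before total RNA was sequenced. Unstimulated naïve Mϕ (Ctrl) were compared with Mϕ stimulated for 6 h with LPS at 100 ng/mL plus IFNγ at 100 U/mL (LPS), with efferocytic Mϕ (Eff), and with efferocytic Mϕ that then received the same stimulus (LPSEff), with 2 samples in each group. Efferocytic Mϕ had been kept for 16 h, before the stimulus, with 5 apoptotic cells per Mϕ of NIH-3T3 CA, a single clone of a mouse fibroblast line whose caspase-8 can be switched on by a dimerizer (10 nM). Whether the naïve Mϕ also received dimerizer, and whether the samples came from separate mice, is not given in the sources used here, so the p-values measure only the spread between these samples.

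The libraries held 3481288 to 12020918 reads, and 3 reads, the limit that a count of 0 allows in a library, corresponded to 1.73 to 5.71 normalized counts. Macrophage genes such as Csf1r and Lyz2 were abundant in all 8 samples, with a summed level of the 10 macrophage markers between 106709 and 156972 normalized counts. T, NK and B cell markers stayed between 6.94 and 63.0 normalized counts in sum. The 8 neutrophil markers summed to 723 to 2647, and fibroblast and dendritic cell markers are given in full beside Fosl1 and Batf3. In bulk RNA, fewer cells of one kind and less RNA per cell cannot be told apart.

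AP-1 binds DNA as a pair of basic leucine zipper proteins. Jun proteins pair with one another or with Fos proteins, whereas Fos proteins need a Jun partner, and the Batf proteins lack a transactivation domain, pair with Jun proteins and bind composite elements together with interferon regulatory factors (IRFs). In Mϕ, Toll-like receptor ligands such as LPS activate MAP kinases that act on existing AP-1 proteins and on transcription of the Fos and Jun genes within minutes. JUN and FOS favour the TGANTCA element, and cyclic AMP response elements (TGACGTCA) are bound by CREB/ATF factors and by Jun-ATF pairs.

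Promoter sequences from RefSeq on GRCm38.p6 matched 8 of the 10 members, Fosl1 and Batf2 being the exceptions. The 250 bases before the start site of Fos, Junb and Jun are shown 5′ to 3′, because these are the classical members whose stimulated and unstimulated samples did not overlap. Capitals mark TGACG, the core of the cyclic AMP response element, in Fos and Junb, and the TGANNTCA match in Jun.
Fos, chr12:85473640-85473889, plus strand: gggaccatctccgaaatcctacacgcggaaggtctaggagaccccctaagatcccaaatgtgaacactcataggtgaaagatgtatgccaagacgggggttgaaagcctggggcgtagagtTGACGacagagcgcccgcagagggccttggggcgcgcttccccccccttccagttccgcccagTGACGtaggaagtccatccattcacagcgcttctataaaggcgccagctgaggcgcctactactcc
Junb, chr8:84978749-84978998, minus strand: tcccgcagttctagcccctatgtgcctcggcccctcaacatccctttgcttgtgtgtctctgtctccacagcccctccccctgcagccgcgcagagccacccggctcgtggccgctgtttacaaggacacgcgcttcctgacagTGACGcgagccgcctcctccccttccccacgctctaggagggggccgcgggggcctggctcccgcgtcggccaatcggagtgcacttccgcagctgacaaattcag
Jun, chr4:95052223-95052472, minus strand: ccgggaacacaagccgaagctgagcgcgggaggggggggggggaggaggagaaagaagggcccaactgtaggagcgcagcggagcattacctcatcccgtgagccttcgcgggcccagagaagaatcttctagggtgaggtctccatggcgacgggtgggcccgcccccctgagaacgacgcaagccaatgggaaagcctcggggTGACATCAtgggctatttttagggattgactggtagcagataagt
Fos carried TGACG at 129 to 125 and at 66 to 62 bases before the start, with TATAAA at 33 to 28. Junb carried it at 106 to 102, and Jun held tgacatca at 45 to 38 bases before the start. Both strands of the same 250 bases were searched in all 32851 promoters. TGACG was found in 4 of the 8 member promoters (Fos, Fosb, Junb and Batf) and in 17.8% of all promoters, and TGANNTCA, which also covers the full TGACGTCA, in 2 (Jun and Jund) and in 11.9%. TGANTCA was in 0 of 8 and in 6.75% of all promoters, and TGACGTCA in 0 of 8 and in 1.55%. Of the elements linked to interferon signalling, TTCNNNGAA was found in Batf3 alone of the 8 (7.02% of all promoters) and GAAANNGAAA in Fosl2 alone (2.98%). A κB site was found in Fosl2, Fosb and Fos, where 7.25% of all promoters held one, and a CArG box in 0 of 8 (1.47%). These are matches of letters only, and bases further upstream were not searched.

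Levels of the members were compared with one another as normalized counts per kb of annotated exon. In Ctrl, Jun (944 ± 61.0 per kb, SD, n = 2) and Junb (846 ± 234) ranked highest and their samples overlapped, followed by Jund (525 ± 35.3). Fos (172 ± 66.9), Fosl2 (119 ± 18.6) and Batf (119 ± 0.30) came next with neighbours that overlapped, then Batf3 (88.0 ± 18.9). Batf2 (8.28 ± 0.12), Fosl1 (6.83 ± 0.39) and Fosb (2.21 ± 0.76) closed the order. With LPS/IFNγ the order changed at the top: Junb (3228 ± 1095 per kb) stood above Jund (709 ± 165) and Jun (641 ± 234), which overlapped, and Batf2 (166 ± 64.2) stood above Fos (68.0 ± 36.5). In efferocytic Mϕ the top 6 places were the same as in Ctrl, but Fosl1 (33.0 ± 6.39 per kb) and Batf3 (31.4 ± 0.63) overlapped, whereas in Ctrl Batf3 was clearly above Fosl1. In LPSEff, Fosl1 (76.3 ± 47.9) overlapped with Fos (65.2 ± 6.99), and Batf3 (42.1 ± 5.63) was below Fos in both samples.

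Expressed as a share of the summed per-kb level of the 10 members, the Jun subfamily made up 80.1% to 84.1% of the pool as group means, and its composition differed with the stimulus. Junb held 32.8% and 26.4% of the pool in the Ctrl samples and 60.7% and 57.5% in the LPS samples. In efferocytic Mϕ it held 32.1% and 26.5% without and 61.1% and 58.4% with LPS/IFNγ. Thus Junb accounted for more of the pool in each stimulated sample than in any unstimulated one, with or without apoptotic cells. Jun held 32.0% and 35.0% in Ctrl but 12.2% and 11.1% in LPS, and 34.3% and 33.5% in Eff but 11.9% and 11.6% in LPSEff. Fos went from a mean share of 5.99% in Ctrl and 9.04% in Eff to 1.21% in LPS and 1.32% in LPSEff. The per-kb ratio of Junb to Jun, which does not depend on how libraries are scaled and was picked after the values were seen, was 1.02 and 0.76 in naïve Mϕ without and 4.96 and 5.16 with LPS/IFNγ, and 0.93 and 0.79 in efferocytic Mϕ without and 5.12 and 5.03 with it. The samples of the stimulated groups were thus closely alike in this ratio, although each of the genes varied between them. With 2 samples against 2 an exact permutation test cannot give a p below 0.333, so no test of these shares is given.

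**Figure D1:**
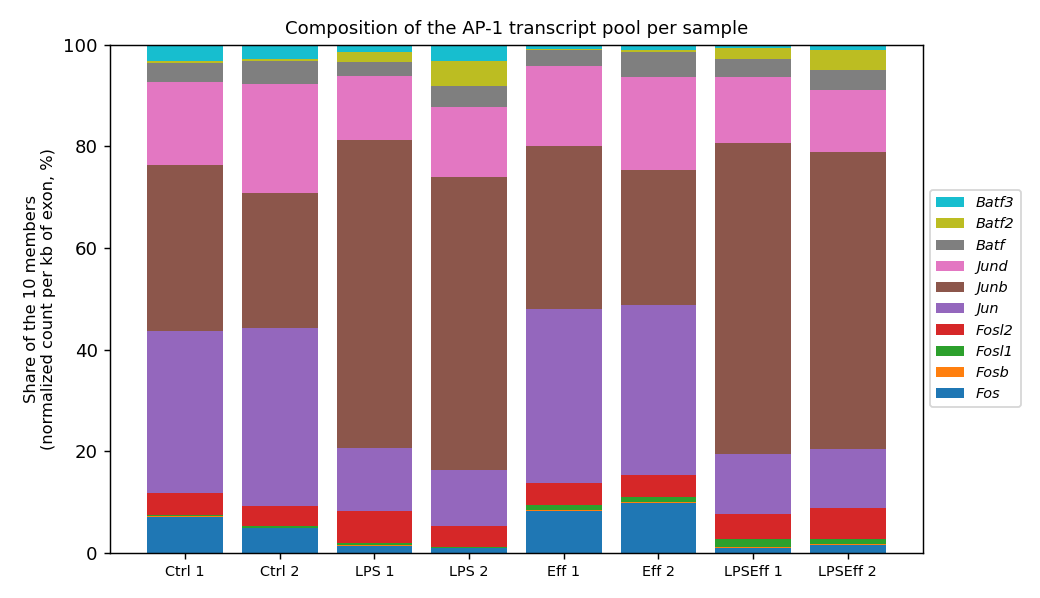
Share of each AP-1 member in the summed normalized count per kb of exon (y axis, %) in each of the 8 samples (x axis), with 1 stacked bar per sample. Junb fills 57.5% to 61.1% of the bar in the 4 stimulated samples and 26.4% to 32.8% in the 4 unstimulated samples.

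The response of naïve Mϕ to LPS/IFNγ (LPS against Ctrl) and that of efferocytic Mϕ (LPSEff against Eff) were tested with limma on log2(normalized count + 1), with Benjamini-Hochberg adjustment over 16309 genes. In each of these comparisons 3 of the 10 members changed: Junb and Batf2 rose and Fos fell. Among all genes tested, 24% were called in naïve and 19.7% in efferocytic Mϕ (higher 12.4% and 10.7%, lower 11.6% and 8.95%), so that the share of members called was near this background. The median log2 fold change of the 10 members was 0.68 in naïve and 0.47 in efferocytic Mϕ, beside -0.01 and 0.01 over all genes tested. Samples of the groups did not overlap for 7 of 10 members in naïve and for 9 of 10 in efferocytic Mϕ, beside 59.3% and 59.9% of all genes. Genes listed as markers of other cell types also moved with the stimulus. Neutrophil markers were higher in both same-numbered pairs for 8 of 8 in naïve and 7 of 8 in efferocytic Mϕ (3 and 1 of 6 tested called), dendritic cell markers for 6 and 7 of 8 (2 and 1 of 6 called), and fibroblast markers for 13 and 14 of 16 (5 and 3 of 15 called). Naïve Mϕ were kept without NIH-3T3 cells, so the rise of listed fibroblast markers there came without added fibroblasts. The share of all genes higher in both pairs was not computed, and the part of these marker genes in the responses of the members was not tested.

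Junb (ENSMUSG00000052837, chr8:85701113-85705359 on GRCm39) encodes a Jun protein that transactivates less strongly than JUN and is induced by cytokines and Toll-like receptor ligands. Its normalized counts were 2409 and 1619 in Ctrl against 9530 and 5843 in LPS, while Eff had 2830 and 1743 and LPSEff had 10123 and 5132. Each stimulated sample thus lay above each unstimulated one, and the naïve and efferocytic samples overlapped at both states. The log2 fold change was 1.92 (SE 0.41, adjusted p = 0.0113, limma) in naïve and 1.70 (SE 0.41, adjusted p = 0.0213) in efferocytic Mϕ. In naïve Mϕ the call was lost without Ctrl sample 2 (1.63, limma adjusted p = 0.0804), without LPS sample 1 (1.56, 0.0593) and with quantile normalization (1.19, 0.0836). In efferocytic Mϕ it was lost without Eff sample 2 (1.35, limma adjusted p = 0.131), without LPSEff sample 1 (1.21, 0.129), with quantile normalization (0.99, 0.149) and with libraries scaled to equal totals (1.25, 0.0650).

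Jun (ENSMUSG00000052684, chr4:94937271-94940459), the founding Jun gene, went the other way. It was at 3148 and 2872 normalized counts in Ctrl and at 2573 and 1516 in LPS, and at 4059 and 2956 in Eff and 2651 and 1367 in LPSEff. All stimulated samples were below all unstimulated ones. The log2 fold changes of -0.61 (95% CI -1.43 to 0.22, adjusted p = 0.275, limma) and -0.86 (-1.69 to -0.04, adjusted p = 0.138) did not pass the test. With the replicate number as a block the same differences passed it (limma adjusted p = 0.0226 and 0.0039). Jund (ENSMUSG00000071076, chr8:71151599-71153265), which is expressed at a steady level in most cells and has been described as an antagonist of JUN in growth control, ranged from 746 to 1503 normalized counts over all samples. Its highest and lowest values were the pair of LPSEff samples. Its log2 fold change was 0.41 (95% CI -0.32 to 1.15) in naïve and 0.23 (-0.51 to 0.97) in efferocytic Mϕ, the latter below 0 under quantile normalization (-0.05) and equal totals (-0.22).

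Fos (ENSMUSG00000021250, chr12:85520658-85524047), the prototype immediate-early gene, was lower with the stimulus. Ctrl samples had 518 and 295 normalized counts and LPS samples 221 and 99.5, whereas Eff samples had 720 and 642 and LPSEff samples 165 and 142. The stimulated samples were below all unstimulated ones, and the Eff samples were above the Ctrl samples. Fos fell in both comparisons, at -1.39 on the log2 scale (SE 0.39, adjusted p = 0.0351, limma) among naïve and -2.14 (SE 0.39, adjusted p = 0.0070) among efferocytic Mϕ. The call in naïve Mϕ was the weaker one: it was lost with edgeR (adjusted p = 0.0635), with only these groups in the fit (0.0790), with quantile normalization (0.0611), without Ctrl sample 1 (-0.99, limma adjusted p = 0.204), without LPS sample 2 (-0.82, 0.144), and narrowly when any 1 of the 4 efferocytic libraries was left out (0.0501 to 0.0530). In efferocytic Mϕ the call was made in each of the settings run.

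Fosl2 (ENSMUSG00000029135, chr5:32292707-32315186), which encodes FRA-2, a Fos protein without the transactivation domains of FOS, was the Fos gene with the highest level per kb in both stimulated groups. Its normalized counts were 1373 and 1099 in Ctrl against 4334 and 1806 in LPS, while Eff had 1669 and 1229 and LPSEff had 3579 and 2326. The stimulated samples were all above the unstimulated ones, with LPS sample 1 far above LPS sample 2. Its log2 fold change was 1.19 (SE 0.40, adjusted p = 0.0685, limma) in naïve and 1.01 (SE 0.40, adjusted p = 0.124) in efferocytic Mϕ, neither passing the test. Both passed it with the replicate block (limma adjusted p = 0.0008 and 0.0026) and with DESeq2 (0.0055 and 0.0447). When 1 library was left out at a time, the naïve value ran from 0.56 to 1.82, the latter without LPS sample 2. The efferocytic value then ran from 0.70 to 1.32, and it was as low as 0.48 over the 21 settings run.

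The other Fos genes were low. Fosb (ENSMUSG00000003545, chr7:19036621-19043976) had 5 to 35 reads per library. It was at 17.1 and 10.4 normalized counts in Ctrl and 45.3 and 12.2 after LPS/IFNγ, and at 28.04 and 24.7 in Eff and 24.5 and 6.35 after the same stimulus. Its log2 fold change was 0.78 (95% CI -0.95 to 2.51) in naïve and -0.996 (-2.72 to 0.73) in efferocytic Mϕ, with no call in any setting run. Fosl1 (ENSMUSG00000024912, chr19:5497575-5505974), which encodes FRA-1, differed most between samples of 1 group: LPS sample 1 had 62.1 and LPS sample 2 had 10.2 normalized counts, against 13.3 and 14.5 in Ctrl. The log2 fold change of 0.83 (95% CI -0.91 to 2.58, adjusted p = 0.489, limma) therefore depended on a single library, and was 2.08 (limma adjusted p = 0.0414) without LPS sample 2 and -0.42 without LPS sample 1. In efferocytic Mϕ the samples did not overlap, and the log2 fold change of 1.06 (95% CI -0.69 to 2.80, adjusted p = 0.394, limma) was 0.37 without LPSEff sample 1 and 1.74 without LPSEff sample 2. It was called in 1 of the 21 settings run, edgeR with the replicate block (1.12, adjusted p = 0.0440).

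Batf2 (ENSMUSG00000039699, chr19:6191013-6222506), an interferon-inducible member that pairs with JUN family proteins and IRF1 in activated Mϕ, showed the largest change of the family. It was at 20.9 and 21.4 normalized counts in Ctrl and at 309 and 541 in LPS, and at 15.8 and 18.3 in Eff and 396 and 378 in LPSEff. The 4 stimulated samples were all far above the 4 unstimulated ones, with 11 to 37 reads behind the latter values. Batf2 rose by 4.21 on the log2 scale (SE 0.30, adjusted p = 8.29e-05, limma) in naïve and by 4.43 (SE 0.30, adjusted p = 5.58e-05) in efferocytic Mϕ, and was called in each of the 21 settings run.

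Batf (ENSMUSG00000034266, chr12:85733423-85755861), a partner of JUN proteins best known from T and B cells, was at 169 normalized counts in both Ctrl samples against 263 and 246 in LPS, and at 172 and 200 in Eff against 353 and 204 in LPSEff. Its samples did not overlap in either comparison, but the log2 fold changes of 0.58 (95% CI -0.04 to 1.204, adjusted p = 0.164, limma) and 0.53 (-0.09 to 1.15, adjusted p = 0.216) did not pass the test. Batf3 (ENSMUSG00000026630, chr1:190830044-190841142) gave 0.44 (95% CI -0.18 to 1.06) in naïve and 0.41 (-0.21 to 1.03) in efferocytic Mϕ, the latter -0.03 with equal totals.

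**Figure D2:**
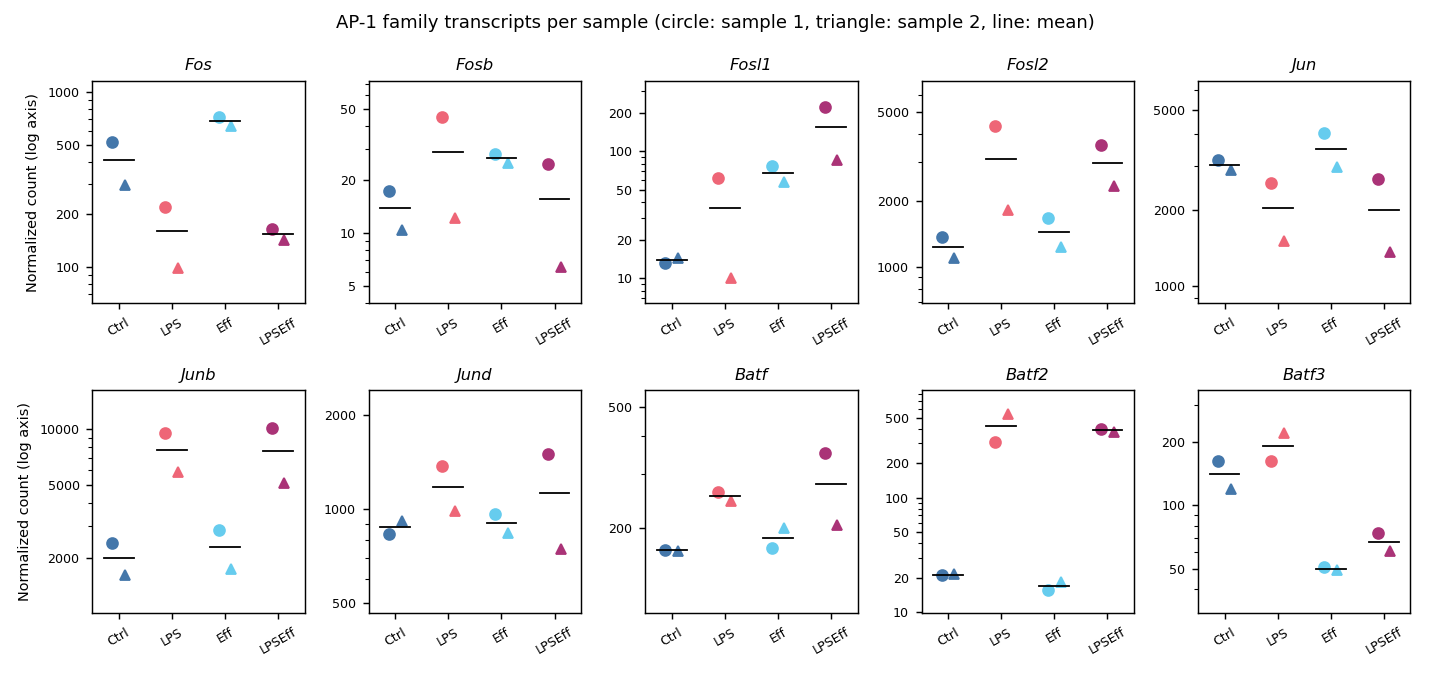
Normalized count (y axis, log scale) of each AP-1 member in the 4 groups (x axis), 1 panel per gene, with circles for sample 1, triangles for sample 2 and a line at the group mean. Batf2 and Junb are higher and Fos is lower in all stimulated samples, and Batf3 is lower in the Eff and LPSEff samples than in the Ctrl and LPS samples.

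Scaling bore on the size of these values. The normalized counts summed to 6.59e+06 to 6.95e+06 in unstimulated and to 8.47e+06 to 9.49e+06 in stimulated samples. With all libraries scaled to equal totals, the median log2 fold change over all genes tested shifted to -0.40 for naïve and -0.44 for efferocytic Mϕ, and 24.8% and 21.8% of the genes called were higher, against 51.5% and 54.6% as deposited. On that scale the median of the 10 members was 0.29 and 0.03, above the shifted median of all genes, and Jun was called lower in efferocytic Mϕ (-1.31, limma adjusted p = 0.0370).

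The effect of efferocytosis was compared in unstimulated (Eff against Ctrl) and stimulated Mϕ (LPSEff against LPS). Of the 10 members, 0 passed the test in either comparison with limma, beside 0.251% and 0.773% of all genes. At an unadjusted p under 0.05 there were 2 of 10 members in each, Fosl1 and Batf3 in both, beside 6.13% and 10.3% of all genes. DESeq2 on the recovered reads called 1 member (Batf3) in each comparison, beside 1.25% and 2.26% of all genes, and edgeR called 0 in each, beside 0.0858% and 0.773%. Samples did not overlap for 6 members in unstimulated Mϕ (Fos, Fosb, Fosl1 and Batf higher in Eff, Batf2 and Batf3 lower) and for 2 in stimulated Mϕ (Fosl1 higher, Batf3 lower), beside 34.1% and 36.3% of all genes.

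Batf3, a factor required for the development of cross-presenting dendritic cells, was the member with the smallest p. Its normalized counts were 162 and 119 in Ctrl and 50.8 and 49.4 in Eff, and 162 and 219 in LPS and 73.6 and 60.9 in LPSEff. Every efferocytic sample was below every naïve sample. The log2 fold change was -1.45 (95% CI -2.07 to -0.83, adjusted p = 0.112, limma) in unstimulated and -1.48 (-2.10 to -0.86, adjusted p = 0.0633) in stimulated Mϕ. Both passed the test with the replicate block (limma adjusted p = 0.0106 and 0.0061), where 2.67% and 6.97% of all genes were called, and with DESeq2 (0.0109 and 0.0044). Batf3 was called in 4 of the 21 settings run in unstimulated and in 5 in stimulated Mϕ. With 1 library left out at a time, its log2 fold change ran from -1.67 to -1.23 in unstimulated and from -1.70 to -1.26 in stimulated Mϕ. Dendritic cell markers were lower as well when same-numbered samples were compared. All 8 were lower in both pairs of Eff and Ctrl samples, and 7 of 8 in those of LPSEff and LPS, with 0 called in either. The share of all genes lower in both pairs was not computed. Clec9a counted among the 8 with 1.90 and 1.73 normalized counts in Ctrl against 0 and 1.41 in Eff, at or below the level of 3 reads. The summed level of the 8 markers was 4551 and 9693 normalized counts in Ctrl against 2685 and 6085 in Eff. It was 10663 and 24111 in LPS against 8345 and 12940 in LPSEff. Of the defining markers, Clec9a and Cd209a reached at most 13 and 14 reads in a library, whereas Flt3, Xcr1 and Zbtb46 reached 217, 626 and 734. Their part in the Batf3 difference was not tested.

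Fosl1 was higher in efferocytic Mϕ. It had 76.2 and 57.9 normalized counts in Eff against 13.3 and 14.5 in Ctrl, and 224 and 86.3 in LPSEff against 62.1 and 10.2 in LPS. Efferocytic samples lay above the naïve ones at each state, although LPS sample 1 lay between the Eff samples. The log2 fold change was 2.18 (95% CI 0.43 to 3.93, adjusted p = 0.603, limma) in unstimulated and 2.40 (0.65 to 4.15, adjusted p = 0.285) in stimulated Mϕ. Of these, the one in stimulated Mϕ passed with the replicate block (limma adjusted p = 0.0199) and the one in unstimulated Mϕ did not (0.0507). The stimulated value was 1.15 without LPS sample 2 and 3.65 without LPS sample 1. Most of the 16 fibroblast markers were higher as well: 12 in both pairs of Eff and Ctrl samples and 10 in those of LPSEff and LPS. In both pairs, 1 and 3 were lower. The share of all genes higher in both pairs was not computed. Of the 15 tested, 6 and 5 were called, beside 0.251% and 0.773% of all genes. Their sum was 1918 and 1602 normalized counts in Ctrl against 13061 and 9524 in Eff, and 25098 and 6875 in LPS against 56795 and 38180 in LPSEff. Thbs1, a matricellular glycoprotein also made by myeloid cells, supplied most of it; without Thbs1 the sum was 626 and 664 in Ctrl against 2396 and 4672 in Eff, and 4756 and 2541 in LPS against 7604 and 6742 in LPSEff. Lox made up 3620 and 1335 of the sum without Thbs1 in the LPS samples, which had received no fibroblasts. The part of the fibroblast markers in the Fosl1 difference was not tested.

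**Figure D3:**
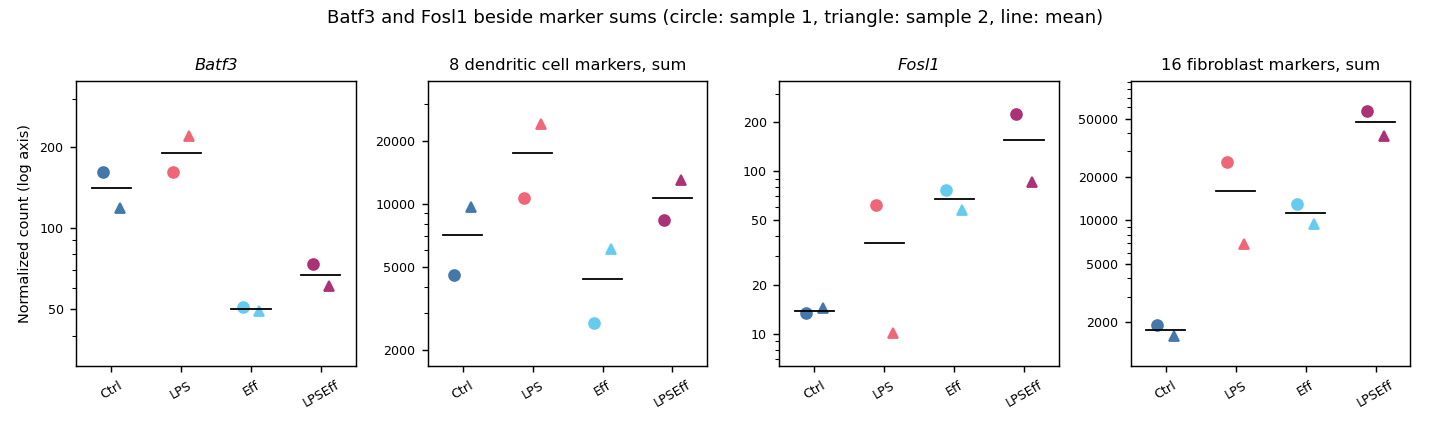
Normalized counts (y axes, log scale) of Batf3 beside the sum of the 8 dendritic cell markers, and of Fosl1 beside the sum of the 16 fibroblast markers, in the 4 groups (x axes), with circles for sample 1, triangles for sample 2 and a line at the group mean. Batf3 was 119 to 219 in naïve and 49.4 to 73.6 in efferocytic samples, and Fosl1 was 10.2 to 62.1 in naïve and 57.9 to 224 in efferocytic samples.

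The remaining members did not pass the test, with wide intervals. Fos was 0.80 (95% CI -0.10 to 1.70, adjusted p = 0.905, limma) in unstimulated and 0.05 (-0.85 to 0.95) in stimulated Mϕ. Junb gave 0.17 (95% CI -0.76 to 1.10) and -0.05 (-0.98 to 0.88), and Jun 0.20 (-0.62 to 1.03) and -0.05 (-0.88 to 0.77). Batf2 gave -0.30 (-0.99 to 0.39) and -0.08 (-0.77 to 0.61). These intervals leave room for changes of the size of a log2 unit in several of the members, so the data do not show that efferocytosis left them alike. Fosl2, Jund and Batf had values between -0.14 and 0.22, and Fosb gave 0.93 (-0.80 to 2.65) and -0.85 (-2.58 to 0.88).

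**Figure D4:**
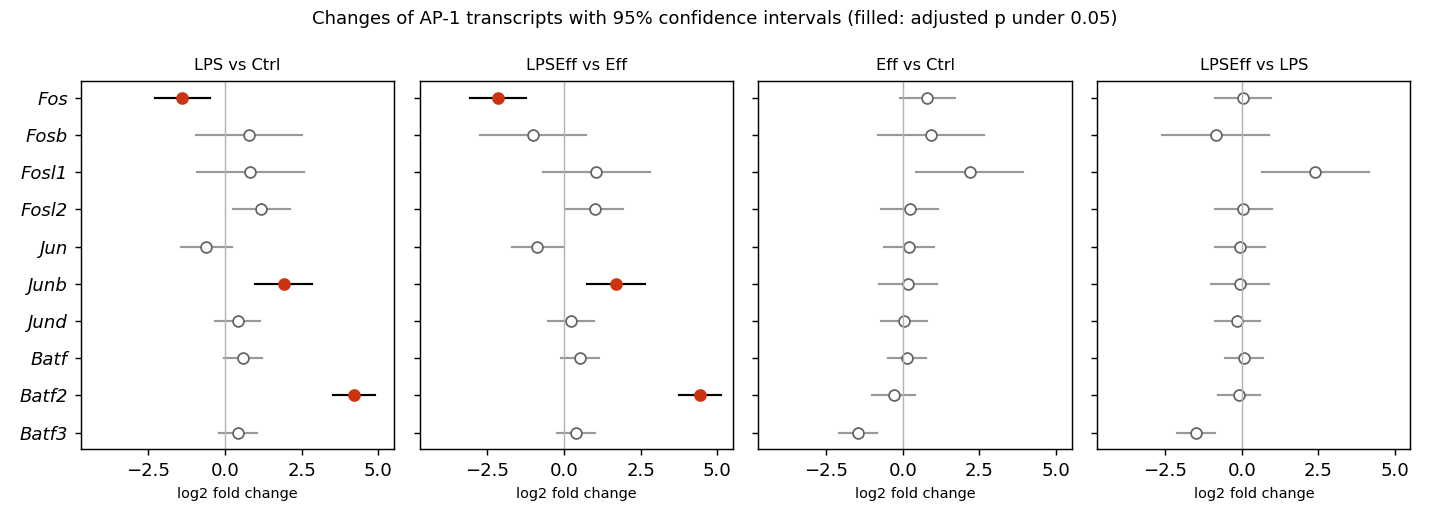
Log2 fold change (x axis, on the log2(normalized count + 1) scale) of the 10 AP-1 members (y axis) in 4 comparisons, with 95% confidence intervals from limma as lines and filled points for an adjusted p under 0.05. Junb, Batf2 and Fos are filled in both LPS/IFNγ comparisons, and no point is filled in the 2 efferocytosis comparisons.

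Whether the LPS/IFNγ response of a member differed between efferocytic and naïve Mϕ was tested as the difference of the log2 fold changes. Of the 10 members 0 passed (limma), beside 0% of all genes, with 0 at an unadjusted p under 0.05 and 0 called by edgeR or DESeq2. The differences ran from -1.78 to 0.22, with unadjusted p from 0.133 to 0.949. Fosb gave the lowest value (-1.78, 95% CI -4.22 to 0.67) and Fos the next (-0.75, -2.02 to 0.52).

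The libraries numbered 1 were above those numbered 2 in all 4 groups for Fos, Fosb, Fosl2, Jun and Junb, by 0.13 (Jun in Ctrl) to 1.81 (Fosb in LPS) on the log2 scale. Batf2 was higher in sample 1 in LPSEff alone. This shared offset is what the replicate block removes, and 5 members were called with the block in both LPS/IFNγ comparisons (Fos, Fosl2, Jun, Junb and Batf2), beside 41.2% and 37% of all genes.

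Partners and regulators were followed as lists. Of 19 ATF, JDP and MAF genes tested, 8 rose in naïve and 8 in efferocytic Mϕ, beside 12.4% and 10.7% of all genes. The median log2 fold change of the list was 0.69 and 0.48. Crem, which encodes modulators and repressors at cyclic AMP response elements, rose by 2.24 (SE 0.34, adjusted p = 0.0028, limma) and 2.01 (SE 0.34, adjusted p = 0.0053). Maff, a small MAF protein, rose by 1.89 and 1.98, and Nfil3, a repressor that is itself a basic leucine zipper protein, by 1.89 and 1.70. Atf3, a stress-induced repressor of inflammatory genes, rose from 1308 ± 211 to 3719 ± 1591 normalized counts (SD, n = 2, log2 fold change 1.45, adjusted p = 0.0184, limma) in naïve Mϕ and from 945 ± 15.3 to 4658 ± 1757 (2.25, adjusted p = 0.0032) in efferocytic Mϕ. Atf5 fell in both comparisons (-0.89, adjusted p = 0.0211, and -1.01, adjusted p = 0.0144, limma). With efferocytosis 0 of 19 were called at either state, beside 0.251% and 0.773% of all genes.

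Of the IRF partners of the BATF proteins, Irf8 rose in naïve (1192 ± 48.0 to 5195 ± 2403 normalized counts, SD, n = 2, log2 fold change 2.04, adjusted p = 0.0023, limma) and in efferocytic Mϕ (1105 ± 193 to 3677 ± 111, 1.74, adjusted p = 0.0056). Irf4 did not pass the test in these comparisons. It was at 523 ± 206 in Ctrl and 242 ± 132 normalized counts in Eff (log2 fold change -1.16, adjusted p = 0.765, limma).

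In the MAP kinase cascade, 3 of 24 genes tested rose and 2 fell in naïve Mϕ, and 3 rose and 1 fell in efferocytic Mϕ. Among all genes tested, 24% and 19.7% were called, so that the share of this list was near the background. Map3k8, the kinase that links LPS signalling to ERK activation, rose by 1.71 and 1.73, and Map2k1, the ERK kinase below it, by 1.65 and 1.72. Tab2, an adaptor of the TAK1 kinase, rose by 0.92 and 0.88, whereas Tab1, another TAK1 adaptor, fell (-0.72 and -0.87). Mapk14, which encodes p38α, fell in naïve Mϕ (1162 ± 187 to 638 ± 81.3 normalized counts, SD, n = 2, log2 fold change -0.86, adjusted p = 0.0199, limma). In efferocytic Mϕ it was at -0.68 and was not called (adjusted p = 0.0553, limma). The median log2 fold change of the list was 0.10 and 0.11.

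Of 23 other immediate-early genes, 9 rose and 4 fell in naïve and 8 rose and 4 fell in efferocytic Mϕ, so that members of this class moved in both directions as the AP-1 genes did. Among all genes tested, 12.4% and 10.7% were called higher and 11.6% and 8.95% lower. Those that rose included the nuclear receptor gene Nr4a3 (3.24 and 3.25), Gadd45b (2.75 and 3.46), a regulator of MAP kinase signalling, Ier3 (2.65 and 2.18) and Csrnp1 (2.57 and 2.21). Myc (-2.38 and -2.24) and Klf4 (-2.00 and -1.88) fell in both, as did Egr2 (-1.55 and -1.10). With efferocytosis 0 of 23 were called at either state, beside 0.251% and 0.773% of all genes.

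For the members called, the genes with the most similar pattern were sought by the root mean square distance between the 4 centred group means of log2(normalized count + 1), over 12852 genes. Only group means entered this distance, not the spread between samples. Nearest to Fos were Pus7 (distance 0.10), Susd4 (0.12) and F2rl2 (0.12), and 15 genes lay within 0.2. In Ctrl, Pus7 was at 88.6 ± 20.3 normalized counts (SD, n = 2), but Susd4 at 67.7 ± 66.2 and F2rl2 at 130 ± 108. Nearest to Junb were Tgif1 (0.02), Nfil3 (0.03) and Usp25 (0.04), with 140 genes within 0.2. Nearest to Batf2 were Enpp4 (0.06), Gbp11 (0.06) and Ifi209 (0.07), with 21 genes within 0.2.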

How the data were processed

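Total RNA of 8 samples (4 groups of 2, by the sample titles) was depleted of rRNA and sequenced. Per the study's methods, the authors used cutadapt for adapters and bowtie2 to discard rRNA, aligned the remaining reads to mm39 (STAR) and ran htseq-count at its default settings, which count by strand. Versions and annotation release are not given in the sources used here. The deposited values are counts per gene divided by 1 DESeq2 size factor per sample, a scaled signal. 100% of the values in each sample were whole multiples (within 0.01) of that sample's smallest value, so the reads were recovered for edgeR and DESeq2, which called 3991 and 3954 genes in LPS against Ctrl where limma called 3910. Gene IDs were named from GENCODE vM39 (GRCm39), where 54749 of 55359 matched. Each member overlapped other annotated exons, if any, on the opposite strand alone.

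limma 3.58.1 (R 4.3.3, trend, empirical Bayes) was fitted to log2(normalized count + 1), which understates changes of low genes, with 4 group means over all 8 samples and genes with a mean of at least 10 (16309, all 10 members included). Calls were made at an adjusted p under 0.05. Scripts were tested on simulated data. Alternatives were other pseudocounts and filters, quantile and equal-total scaling, edgeR 4.0.16, DESeq2 1.42.0, each library left out and the replicate number as a block. Same-numbered samples deviated together in all 6 pairs of groups (r 0.40 to 0.59 over 16309 genes), and the pairing was taken from this check, as the labels do not state a shared preparation. The members, gene lists and markers were chosen with earlier results of these data known. Lists other than the members name genes called with non-overlapping groups, up to 3 per direction, list and comparison (1 such gene is not reported here), with values in the other comparison where called there, Irf4, Csf1r, Lyz2 and the defining markers apart. Intervals and floors cover counting error or the spread between these samples.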

Additional observations from a re-analysis of the deposited data

How the results depend on the processing

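Batf2 was called in both LPS/IFNγ comparisons, and Fos in LPSEff against Eff, in each of the 21 settings run. With the replicate block, limma called 5 members in LPS against Ctrl, 5 in LPSEff against Eff, 1 in Eff against Ctrl and 2 in LPSEff against LPS. Adding the block to edgeR and to DESeq2, a choice made after seeing the data, gave 5 and 5, 6 and 5, 1 and 2, and 2 and 2 in the same order, the sixth being Fosl1. In limma the block changed no call of a member other than those of Fosl2, Jun, Batf3 and Fosl1, and in edgeR it also brought the call of Fos in LPS against Ctrl. DESeq2 without the block called 1 member in each efferocytosis comparison, and quantile normalization 1 in LPSEff against LPS (Batf3). The interaction gave 0 members in each setting. Several values near 0 that were not called changed sign. Jund in LPSEff against Eff was -0.048 with quantile normalization and -0.22 with equal totals, Batf3 there was -0.031 with equal totals, and Jund in Eff against Ctrl was -0.00029 with edgeR and the block. In LPSEff against LPS, Fos was -0.069 with edgeR, -0.083 with DESeq2, -0.0087 with edgeR and the block and -0.0047 with DESeq2 and the block, and Fosl2 was -0.078, -0.085 and, with DESeq2 and the block, -0.0042. Leaving out 1 library at a time, the log2 fold changes that changed sign ranged as follows: in LPS against Ctrl, Fosb -0.13 to 1.69 and Fosl1 -0.42 to 2.08. In LPSEff against Eff, Jund -0.27 to 0.74. In Eff against Ctrl, Jun -0.025 to 0.43, Junb -0.18 to 0.52 and Jund -0.057 to 0.14. In LPSEff against LPS, Fos -0.53 to 0.62, Fosb -1.76 to 0.055, Fosl2 -0.59 to 0.68, Jun -0.53 to 0.42, Junb -0.54 to 0.44, Jund -0.64 to 0.37, Batf -0.31 to 0.47 and Batf2 -0.48 to 0.32. The cause of these changes was not tested. Fosb, with 5 to 35 reads per library, has the least depth of the members, and its intervals were wide.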

Other observations

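Genes that textbooks list as AP-1 targets, which have many other regulators, moved mostly upward with the stimulus. Of 21 tested, 14 rose and 1 fell in naïve and 15 rose and 1 fell in efferocytic Mϕ, with a median log2 fold change of 2.24 and 2.37 beside -0.01 and 0.01 over all genes tested (limma). Of all genes, 12.4% and 10.7% were called higher and 11.6% and 8.95% lower. Il6, a cytokine gene, went from 13.5 ± 2.96 normalized counts in Ctrl to 9337 ± 1749 in LPS (SD, n = 2, log2 fold change 9.33, adjusted p = 1.28e-06, limma), and Ptgs2, which encodes cyclooxygenase-2, from 85.3 ± 2.09 to 41593 ± 5305. Il1b rose in both comparisons (8.73 and 8.26), as did Il12b (7.41 and 7.62). Ccnd1, the cyclin D1 gene, fell in both (-2.29 and -2.28). With efferocytosis 1 of 21 rose at each state, beside 0.251% and 0.773% of all genes called in either direction. These were Ptgs2 in unstimulated Mϕ (85.3 ± 2.09 to 257 ± 31.6, log2 fold change 1.58, adjusted p = 0.0229, limma) and Mmp9, a gelatinase gene, in stimulated Mϕ (49.6 ± 21.3 to 271 ± 39.9, 2.49, adjusted p = 0.0319).

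Of 6 C/EBP genes, 1 fell in each LPS/IFNγ comparison, namely Cebpa, a factor of myeloid differentiation (-2.17, adjusted p = 0.0090, and -2.37, adjusted p = 0.0071, limma). Of 6 genes for SRF and its cofactors, 1 fell in naïve Mϕ (Mrtfb, -0.75, adjusted p = 0.0307, limma). In efferocytic Mϕ 0 were called, and Mrtfb was at -0.49 (adjusted p = 0.134, limma). Of 7 regulators of JUN protein, 1 fell in naïve Mϕ (Det1, part of a ubiquitin ligase complex, -0.90, adjusted p = 0.0296, limma). In efferocytic Mϕ 0 were called, and Det1 was at -0.73 (adjusted p = 0.0709, limma). For each of these 3 lists, 0 genes were called with efferocytosis at either state, beside 0.251% and 0.773% of all genes. With LPS/IFNγ, 24% of all genes were called in naïve and 19.7% in efferocytic Mϕ.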
